A study of Rattus norvegicus with 8 samples.

Results

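A set of 10 genes of the antioxidant program driven by the transcription factor NRF2 were followed in rat astrocytes: Nqo1, Hmox1, Gclc, Gclm, Prdx1, Txnrd1, Srxn1, Gsta1, Me1 and Gsr. They are the rows of the deposited count table with these symbols. The 10 are among 28546 entries, and all 10 were among the 14445 genes with enough counts to be tested. They are defined by symbol alone, with no threshold on a measured value, although earlier results of these data were known when they were chosen.

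The astrocytes came from Sprague Dawley rat pups, and every group was exposed for 24 h to 12-273 BM melanoma cells or to their medium, so no library shows astrocytes without melanoma. The control group (n = 2 libraries) met melanoma cells with a scrambled hairpin (Scr). The group called sh-APP (n = 3) met cells with the hairpin shAPPa, directed at the gene of the amyloid precursor protein. For the group called anti-Abeta (n = 3), the cells had the scrambled hairpin and an antibody to amyloid beta was added. The labels speak of co-culture, of melanoma-conditioned medium and of astrocyte medium placed on melanoma cells, and do not say which reached the astrocytes that were sequenced. Both arms bear on how amyloid beta affects astrocytes that meet melanoma, and both share the 2 control libraries.

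NRF2, the product of Nfe2l2, is held low in resting cells because KEAP1 presents it to a ligase built on CUL3, which marks it for destruction. Oxidants and electrophiles disturb KEAP1, and NRF2 then pairs with small MAF proteins at antioxidant response elements, which BACH1 can occupy as a repressor. In the brain, astrocytes are the cells best known for this program, and they export glutathione that neurons draw on. The genes fall into those for quinone and heme breakdown, for making and using glutathione, for the thioredoxin and peroxiredoxin cycle, and for NADPH.

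The bases before the transcription start of 5 of these genes are shown first: Nqo1 and Srxn1 as members that rose with the hairpin, and Gclm, Prdx1 and Me1 as members that fell. The sequences come from RefSeq on the build GRCr8, which is not the build of the counts (rn6), and each holds the 250 bases before the annotated start, 5′ to 3′ on the gene's strand. A RefSeq promoter was matched for 8 of the 10 members (9 promoters), and Hmox1 and Gsr had no entry. Capitals mark matches on either strand to TGACNNNGC, the core of the antioxidant response element, or to TGACTCA, the AP-1 site. The motifs can overlap, as they do in Prdx1 and Me1.
Nqo1, chr19:52220268-52220517, minus strand: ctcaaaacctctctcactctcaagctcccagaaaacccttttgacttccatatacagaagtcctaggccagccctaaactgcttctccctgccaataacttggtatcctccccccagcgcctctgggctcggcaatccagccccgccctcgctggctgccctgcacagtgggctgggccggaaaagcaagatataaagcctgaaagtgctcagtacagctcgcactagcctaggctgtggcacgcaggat
Srxn1, chr3:161064562-161064811, plus strand: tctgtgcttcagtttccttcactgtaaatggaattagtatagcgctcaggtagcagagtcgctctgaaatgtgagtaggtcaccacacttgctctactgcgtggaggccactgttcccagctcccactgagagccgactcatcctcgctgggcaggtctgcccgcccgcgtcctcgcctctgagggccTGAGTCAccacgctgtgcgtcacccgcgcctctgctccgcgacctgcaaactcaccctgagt
Gclm, chr2:213031885-213032134, plus strand: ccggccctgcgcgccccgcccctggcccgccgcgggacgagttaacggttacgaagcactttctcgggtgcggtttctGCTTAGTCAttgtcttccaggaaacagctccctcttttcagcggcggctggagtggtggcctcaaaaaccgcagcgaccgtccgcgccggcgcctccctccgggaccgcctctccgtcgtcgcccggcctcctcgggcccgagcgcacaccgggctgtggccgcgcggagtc
Prdx1, chr5:135383656-135383905, plus strand: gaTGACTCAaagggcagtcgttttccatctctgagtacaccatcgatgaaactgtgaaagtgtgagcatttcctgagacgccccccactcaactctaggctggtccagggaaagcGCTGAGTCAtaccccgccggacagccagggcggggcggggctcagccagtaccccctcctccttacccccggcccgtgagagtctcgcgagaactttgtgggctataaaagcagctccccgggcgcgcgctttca
Me1, chr8:96540245-96540494, minus strand: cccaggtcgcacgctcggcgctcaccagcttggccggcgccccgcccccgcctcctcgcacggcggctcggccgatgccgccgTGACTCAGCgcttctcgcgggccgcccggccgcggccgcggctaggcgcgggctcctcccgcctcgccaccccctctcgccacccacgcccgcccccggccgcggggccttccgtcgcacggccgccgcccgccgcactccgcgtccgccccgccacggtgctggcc
The core of the antioxidant response element was found in 4 members and in 10.1% of all 33469 RefSeq rat promoters of this length. In Gclm it read GCTTAGTCA on the strand shown, 172 to 164 bases before the start. In Prdx1 it read GCTGAGTCA (135 to 127 bases before the start), and in Me1 TGACTCAGC (167 to 159). Txnrd1 held GCTTTGTCA 78 to 70 bases before its start. The AP-1 letters were found in Prdx1 (2 matches), Srxn1 and Me1, and in 4.05% of all promoters. Neither motif occurred in this window of Nqo1, Gclc or Gsta1, which says nothing of sites farther away. These are matches of letters, and binding of NRF2 was not measured.

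The library totals ran from 34250464 to 47831595 counts, and the members held 481 to 29606 counts in a library, so the spread between libraries set the precision. Anti-Abeta replicate 2 stood apart in its group, with a chi-square per degree of freedom of 30.5 and 45.4 against the other two antibody libraries, where the other pairs within groups gave 16.9 to 20.2. Results of the antibody arm are therefore given with and without it where they change. All 12 astrocyte markers were tested, and their summed level was 18229 to 18793 CPM (counts scaled to a common library total) in control, 20579 to 23853 in sh-APP and 16349 to 17707 in anti-Abeta. Of 11 microglia and macrophage markers 10 were in the table and summed to between 10.7 and 21.9 CPM in any library, with Cx3cr1 at 0. The 9 neuron markers summed to 332 to 358 CPM in control, 153 to 164 in sh-APP and 226 to 291 in anti-Abeta. The 9 oligodendrocyte lineage markers summed to 2313 to 2392, 2738 to 2893 and 2690 to 3019 CPM in the same order. Endothelial markers (5 of 6 in the table, Cldn5 at 0) reached 8.37 CPM at most, and fibroblast and pericyte markers (7 of 8 in the table) 39.9 CPM. The 9 melanocyte and melanoma markers summed to 4338 to 4420 CPM in control, 2230 to 2436 in sh-APP and 3542 to 3838 in anti-Abeta, nearly all of it from Gpnmb, which other cells also express. Neuron and melanocyte marker sums were lower, and oligodendrocyte, endothelial, and fibroblast and pericyte sums higher, in every library of both arms than in control. The neuron sum was carried by Map2 and Snap25: in sh-APP 3 neuron markers were called higher (Stmn2, Tubb3 and Rbfox3) and 3 lower. The oligodendrocyte lineage sum was carried by Olig1 and Olig2: in sh-APP 1 marker of this list was called higher and 2 lower. Its markers Pdgfra and Ugt8 had means of 33.7 and 5.86 CPM in control and 16.9 and 1.13 in sh-APP. The part of these cell types in the results was not tested. In bulk RNA fewer cells of a type cannot be told apart from less RNA per cell. The labels do not say that libraries of a group were separate cultures, so the tests cover only the spread among libraries, which may be technical.

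The members moved in opposite directions within the sh-APP group. Against control, Nqo1, Hmox1 and Srxn1 rose, Gclm, Prdx1 and Me1 fell, and Gclc, Txnrd1, Gsta1 and Gsr did not pass the test (edgeR, adjusted p under 0.05, called below). Thus 6 of 10 members were called, beside 53.7% of all tested genes. The 3 higher members stand beside 25.8% of all genes called higher, and the 3 lower beside 27.9%. These shares are near the background, so the count does not set the members apart. Their median log2 fold change was -0.04, and that of all tested genes 0.03. Scaling by library totals alone would raise all values of this comparison by a median of 0.20, with 5174 of all genes called higher and 3091 lower in place of 3723 and 4027.

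With the antibody, none of the members was called higher and 4 fell: Gclc, Prdx1, Gsta1 and Me1. Of all genes, 29.2% were called in this comparison, 12.7% higher and 16.6% lower. At an unadjusted p under 0.05, edgeR also gave 0 members higher and 5 lower, while DESeq2 and limma-voom each called 0 higher at their adjusted p. Without anti-Abeta replicate 2, 6 members were called, with Srxn1 higher and Gclm added to those lower, and 33.2% of all genes were called. The members' median log2 fold change was -0.21, and that of all tested genes 0.03. Library totals alone would raise all values by a median of 0.15, with 3590 of all genes higher and 1417 lower in place of 1832 and 2391.

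The arms were also compared with each other. Nqo1, Hmox1, Srxn1 and Gsta1 were higher in sh-APP than in anti-Abeta (4 of 10 members, where 26.1% of all genes were called, 10.1% higher and 16% lower). edgeR called 0 members lower, 1 was lower at an unadjusted p under 0.05, and DESeq2 and limma-voom called 0. The median difference of the members was 0.13 on the log2 scale and that of all tested genes -0.01. Prdx1 and Me1 fell against control in both arms, and neither differed between the arms beyond the test's threshold.

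**Figure D1:**
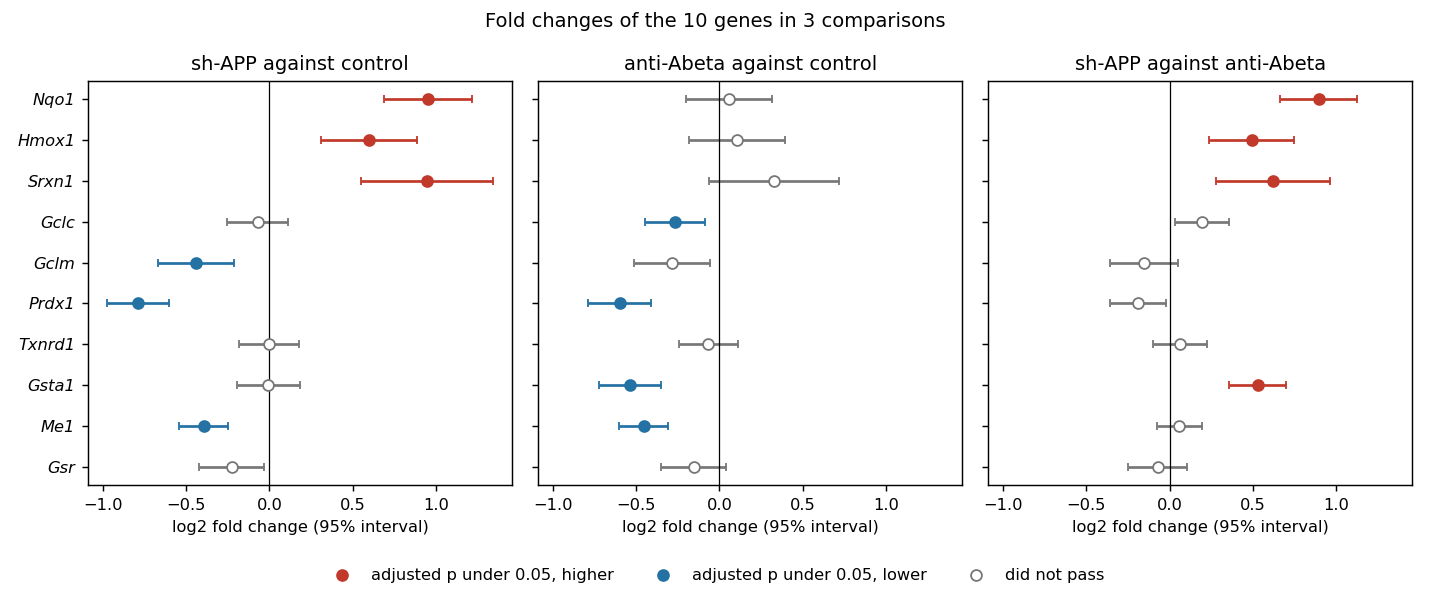
Log2 fold change of each of the 10 members with its 95% interval, for each arm against control and for sh-APP against anti-Abeta, from the edgeR fit. Nqo1 and Srxn1 lie near 0.95 in sh-APP against control and Prdx1 at -0.79, while no member was called higher with the antibody.

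Nqo1 encodes the quinone reductase that reduces quinones without leaving reactive intermediates and is often read as a gauge of NRF2 activity. Its level was 259 and 262 CPM in the control libraries, 532, 406 and 573 in sh-APP, and 272, 253 and 285 in anti-Abeta, here and below in the order of the replicate numbers. All sh-APP libraries were above every other library, and the antibody libraries overlapped the control. The mean went from 260.3 ± 2.34 CPM (SD, n = 2) to 504 ± 86.8 (n = 3) in sh-APP, a rise of 1.94-fold or 0.95 ± 0.12 (SE) on the log2 scale (adjusted p = 4.62e-05). In anti-Abeta the log2 fold change was 0.05 ± 0.12 (95% interval -0.20 to 0.31, adjusted p = 0.771). The arms differed by 0.90 ± 0.11 (adjusted p = 0.000558). The sh-APP rise was called under all 18 alternatives of the fit, with a log2 fold change of 0.85 to 1.16.

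Hmox1 encodes heme oxygenase 1, which opens heme to biliverdin, carbon monoxide and iron, and which BACH1 is known to repress. It had 156 and 149.7 CPM in control, 260.1, 198 and 235 in sh-APP, and 177, 134 and 182 in anti-Abeta. Each sh-APP library was above all others, and the antibody libraries lay on both sides of the control. Hmox1 rose by 0.60 ± 0.13 on the log2 scale in sh-APP (153 ± 4.18 to 231 ± 31.1 CPM, adjusted p = 0.00227). With the antibody the change was 0.11 ± 0.13 (interval -0.18 to 0.39, adjusted p = 0.587). The difference between the arms was 0.49 ± 0.12 (adjusted p = 0.00994). In the gene table of GRCr8, Hmox1 overlaps another annotated locus, and no source used here gives the strandedness of the counting, so reads of both cannot be separated.

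Glutathione is made by glutamate-cysteine ligase, whose catalytic subunit is encoded by Gclc and whose modifier subunit, which lowers feedback inhibition, by Gclm. Gclc had 362 and 335 CPM in control, 339, 307 and 349 in sh-APP, and 288, 270.3 and 311 in anti-Abeta. The sh-APP libraries overlapped the control, whereas all antibody libraries lay below both control libraries. Its log2 fold change was -0.07 ± 0.08 in sh-APP (interval -0.25 to 0.11, adjusted p = 0.501). It fell by 0.27 ± 0.08 with the antibody (348 ± 19.5 to 289.7 ± 20.2 CPM, adjusted p = 0.0317). That call was lost without control replicate 1 (a log2 value of -0.22), control replicate 2 (-0.32) or anti-Abeta replicate 1 (-0.26, adjusted p = 0.0757). It was also lost with only the 2 groups compared (adjusted p = 0.0519), upper-quartile factors (0.0670) and library totals alone (-0.11, adjusted p = 0.349). The arms differed by 0.19 ± 0.07, which did not pass the test (adjusted p = 0.0749).

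Gclm was called lower in sh-APP, where its partner subunit was not called, and no test compared these subunits. The levels below are those of Gclm. It had 105 and 102 CPM in control, 69.9, 78.6 and 80.4 in sh-APP, and 74.6, 97.2 and 82.7 in anti-Abeta, so that every library of both arms was below both control libraries. It fell by 0.44 ± 0.11 on the log2 scale in sh-APP (104 ± 2.27 to 76.3 ± 5.57 CPM, adjusted p = 0.00347), a call lost with library totals alone (-0.24, adjusted p = 0.0510). With the antibody its log2 fold change was -0.29 ± 0.11 (adjusted p = 0.0583). It passed there under 6 of 18 alternatives: without anti-Abeta replicate 2, the highest library of that group (-0.41, adjusted p = 0.00487), and with DESeq2, RLE factors, either other filter or the replicate block (adjusted p from 0.0309 to 0.0499). The arms differed by -0.15 ± 0.09 (interval -0.36 to 0.05, adjusted p = 0.264).

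Gsr encodes glutathione reductase, which returns oxidised glutathione to its reduced form with NADPH. It had 77.6 and 88.9 CPM in control, 71.3, 66.7 and 75.4 in sh-APP, and 76.9, 78.0 and 69.4 in anti-Abeta. All sh-APP libraries were below both control libraries, and the antibody libraries overlapped the control. Its log2 fold change in sh-APP was -0.23 ± 0.09 (interval -0.42 to -0.03, adjusted p = 0.0505). This sat at the threshold and was called under 6 of 18 alternatives, among them DESeq2 (adjusted p = 0.0391). Over the alternatives its log2 fold change ran from -0.32 to -0.02, with an adjusted p of up to 0.849. With the antibody it was -0.16 ± 0.09 (interval -0.35 to 0.04, adjusted p = 0.220). Gsr overlaps other annotated loci.

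Gsta1, an alpha-class glutathione transferase that joins glutathione to electrophiles, fell with the antibody. It had 179 and 165 CPM in control, 168, 161 and 184 in sh-APP, and 113, 113 and 129 in anti-Abeta. The antibody libraries were below all others, and the sh-APP and control libraries overlapped. Gsta1 fell by 0.54 ± 0.09 on the log2 scale in anti-Abeta (172 ± 9.63 to 118 ± 9.19 CPM, adjusted p = 0.00256) and was called under all 18 alternatives, the weakest adjusted p being 0.0495. In sh-APP the change was -0.01 ± 0.09 (interval -0.20 to 0.18, adjusted p = 0.949). The arms differed by 0.53 ± 0.08 (adjusted p = 0.00107). Gsta1 has close copies in the rat genome. Gsta2 and Gsta5 had no count in any library, so how reads were divided among the copies is uncertain.

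Prdx1 encodes a peroxiredoxin that removes hydrogen peroxide and is recharged by thioredoxin. It had 823 and 717 CPM in control, 423, 488 and 426 in sh-APP, and 487, 509 and 526 in anti-Abeta. Both arms lay below both control libraries. Prdx1 fell by 0.79 ± 0.09 on the log2 scale in sh-APP (770.0 ± 75.1 to 446 ± 36.7 CPM, adjusted p = 1.6e-05) and by 0.60 ± 0.09 with the antibody (508 ± 19.7 CPM, adjusted p = 0.00226). The arms differed by -0.19 ± 0.08 (adjusted p = 0.0971). Both falls were called under all 18 alternatives.

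Srxn1 encodes sulfiredoxin, which repairs peroxiredoxins that have been over-oxidised. It had 16.4 and 13.0 CPM in control, 29.0, 25.3 and 30.7 in sh-APP, and 21.9, 13.9 and 19.5 in anti-Abeta. Every sh-APP library was above all others, and anti-Abeta replicate 2 lay within the control range. Srxn1 rose by 0.95 ± 0.18 on the log2 scale in sh-APP, or 1.93-fold (14.7 ± 2.40 to 28.3 ± 2.79 CPM, adjusted p = 0.000802). With the antibody the change was 0.33 ± 0.18 (interval -0.06 to 0.72, adjusted p = 0.192), and without anti-Abeta replicate 2 it was 0.48 (adjusted p = 0.0237). The arms differed by 0.62 ± 0.16 (adjusted p = 0.0133), a call lost without sh-APP replicate 3 (0.56, adjusted p = 0.0534). Thus the repair enzyme rose in sh-APP while Prdx1, one of its substrates, fell.

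Txnrd1 encodes the cytosolic thioredoxin reductase, which keeps thioredoxin reduced. It had 269.6 and 236 CPM in control, 244, 242 and 271 in sh-APP, and 248, 231 and 245 in anti-Abeta. The groups overlapped. Its log2 fold change was -0.00 ± 0.08 in sh-APP (interval -0.18 to 0.18, adjusted p = 0.979) and -0.07 ± 0.08 with the antibody (interval -0.25 to 0.11, adjusted p = 0.583). Txnrd1 overlaps Eid3 and other loci.

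Me1 encodes the cytosolic malic enzyme, which makes NADPH from malate. It had 378 and 360.4 CPM in control, 276, 273 and 293 in sh-APP, and 260.1, 277 and 271 in anti-Abeta. All libraries of both arms were below both control libraries, and the arms overlapped each other. Me1 fell by 0.40 ± 0.07 on the log2 scale in sh-APP (369 ± 12.4 to 281 ± 10.9 CPM, adjusted p = 0.000386) and by 0.46 ± 0.07 with the antibody (269 ± 8.44 CPM, adjusted p = 0.00226). The arms differed by 0.06 ± 0.06 (interval -0.07 to 0.19, adjusted p = 0.527). Both falls were called under all 18 alternatives.

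**Figure D2:**
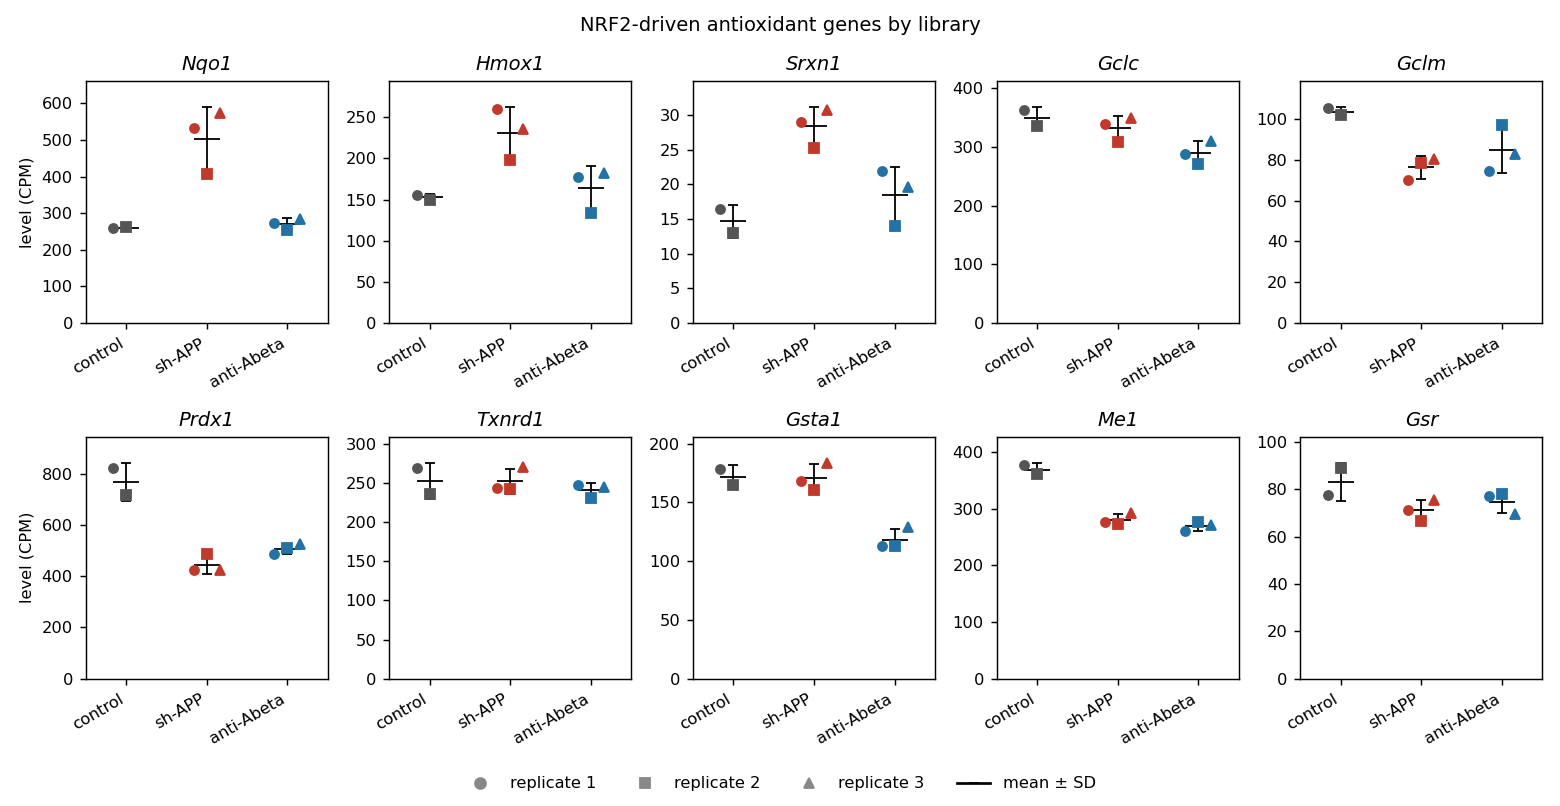
Level of each of the 10 members in CPM on linear axes that start at 0, with 1 point per library and the group mean as a bar, for control (n = 2), sh-APP (n = 3) and anti-Abeta (n = 3). The sh-APP points of Nqo1, Hmox1 and Srxn1 lie above all others, and the points of both arms lie below control for Prdx1, Me1 and Gclm.

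The members varied little within groups. Their coefficient of variation had a median of 5.60% in control, 7.11% in sh-APP and 6.64% in anti-Abeta, and at most 16.3% (Srxn1), 17.2% (Nqo1) and 22.1% (Srxn1). Within sh-APP, replicate 2 was the lowest library for 8 of 10 members and replicate 3 the highest for 8. In anti-Abeta, replicate 2 was the lowest for 5 members (Nqo1, Hmox1, Gclc, Txnrd1 and Srxn1) and the highest for 3 (Gclm, Me1 and Gsr). Control replicate 1 was the higher of its pair for 8.

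**Figure D3:**
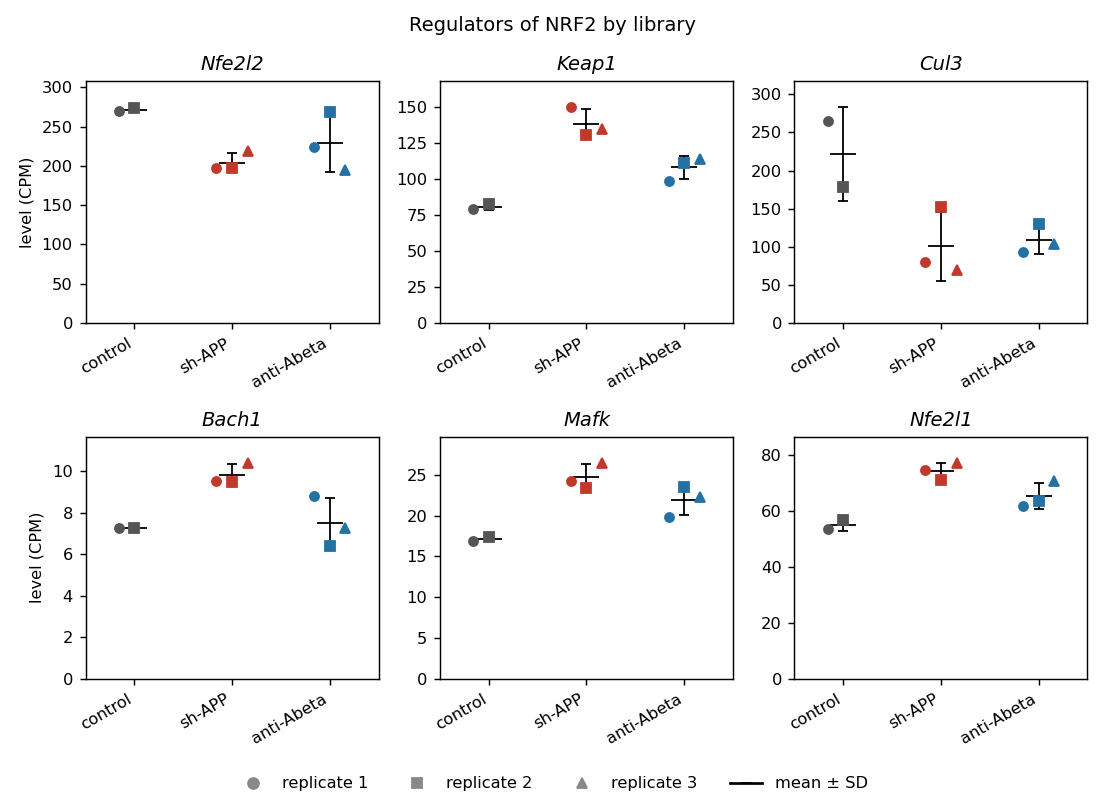
Level of genes that control NRF2 in CPM on linear axes from 0, with 1 point per library and the group mean as a bar. Keap1 lies higher and Nfe2l2 lower in the sh-APP libraries than in both control libraries.

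The genes that control NRF2 moved as well. Nfe2l2, its own gene, had 269 and 274 CPM in control, 198, 197 and 218 in sh-APP, and 224, 269 and 195 in anti-Abeta. It fell by 0.41 ± 0.11 on the log2 scale in sh-APP (adjusted p = 0.00729), although the call was lost without control replicate 2 (adjusted p = 0.0601) and with library totals alone (-0.21, adjusted p = 0.0960). With the antibody the change was -0.25 ± 0.11 (adjusted p = 0.116), and without anti-Abeta replicate 2 it was -0.39 (adjusted p = 0.00415). Keap1, the sensor that holds NRF2 back, had 79.3 and 82.3 CPM in control, 150.0, 131 and 135 in sh-APP, and 98.8, 111 and 114 in anti-Abeta, with no overlap between any of the groups. Keap1 rose by 0.78 ± 0.09 in sh-APP (adjusted p = 2.34e-05) and by 0.42 ± 0.09 with the antibody (adjusted p = 0.0063). The latter was lost without control replicate 1 (0.38, adjusted p = 0.0900). Thus in the sh-APP group the transcript of the activator was lower and that of its sensor higher, while Nqo1, Hmox1 and Srxn1 were higher. Protein levels and the location of NRF2 were not measured.

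Cul3, the scaffold of the ligase that marks NRF2, varied widely. It had 265 and 179 CPM in control, 80.1, 152 and 69.4 in sh-APP, and 93.6, 129.6 and 103 in anti-Abeta. It fell by 1.14 ± 0.27 in sh-APP (adjusted p = 0.00342) and by 1.03 ± 0.27 with the antibody (adjusted p = 0.0161). Without control replicate 1, the highest library, neither was called (-0.82 and -0.73). The sh-APP call was also lost with no filter on low counts (adjusted p = 0.0815) and with only the 2 groups compared (0.0802). The antibody call was also lost without anti-Abeta replicate 1, 2 or 3 (adjusted p = 0.0534, 0.0802 and 0.0621). Library totals alone (0.0762), no filter on low counts (0.156) and the replicate block (0.123) lost it too. Bach1, the repressor, had 7.28 and 7.24 CPM in control and 9.51, 9.50 and 10.4 in sh-APP. It rose by 0.43 ± 0.16 (adjusted p = 0.0414), a call lost without either control library (adjusted p = 0.128 and 0.121) or any sh-APP library (0.0629, 0.0646 and 0.1103). Mafk, a small MAF partner, rose by 0.53 ± 0.11 in sh-APP (adjusted p = 0.00191), and Nfe2l1, a relative of NRF2, by 0.43 ± 0.09 (adjusted p = 0.00105). Cul3, Bach1 and Mafk overlap other annotated genes. Over the whole list of 14 tested regulators, 7 rose and 4 fell in sh-APP (78.6% called, beside 53.7% of all genes), with a median log2 fold change of 0.40. With the antibody 3 rose and 1 fell (28.6%, beside 29.2% of all genes), with a median of 0.08.

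Beyond the members, 117 further genes of 8 related lists were examined, of which 103 were tested. In sh-APP against control 55 rose and 19 fell (71.8% called, where the background was 53.7%), with a median log2 fold change of 0.35 beside 0.03 for all tested genes. With the antibody 29 rose and 14 fell (41.7%, background 29.2%), with a median of 0.16. Under library totals alone, 48 were called higher and 7 lower. Between the arms 34 were higher in sh-APP and 2 lower (35.0%, background 26.1%), with a median of 0.19. By list, with the antibody 6 glutathione supply and use genes rose and 5 fell (55%). In the thioredoxin list 7 rose and 3 fell (58.8%), and among NADPH suppliers 4 and 2 (54.5%). Of glutathione transferases 2 rose and 1 fell (25%), and of quinone and carbonyl genes 5 and 1 (40%). Of superoxide and hydrogen peroxide enzymes 2 rose and 1 fell (50%), and 0 heme and iron genes were called. The antibody split did not hold when single libraries were left out: 10 companions were higher and 13 lower without control replicate 2, 9 and 10 without anti-Abeta replicate 3, and 0 and 1 without control replicate 1. In sh-APP the wider lists held more genes that rose than fell, whereas of the 10 members 3 rose and 3 fell. The difference between the members and the lists was not tested.

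**Figure D4:**
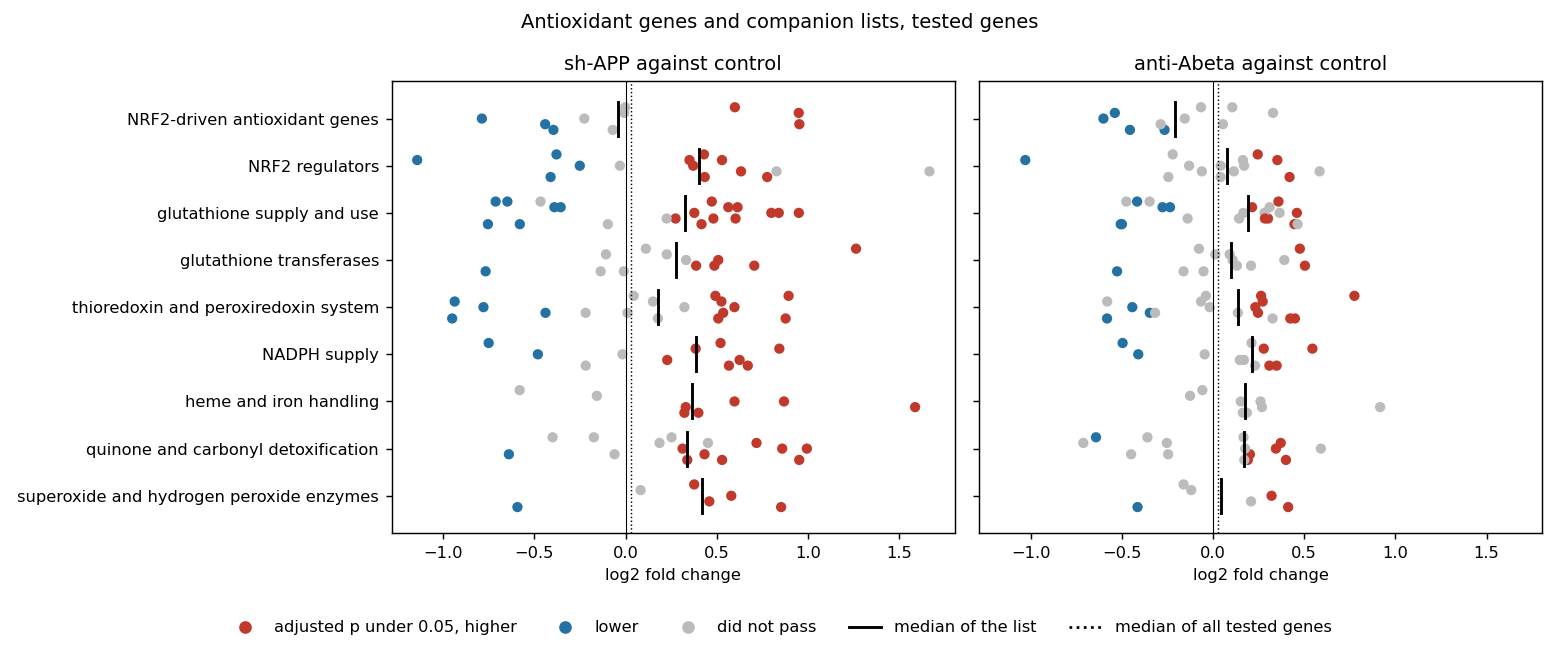
Log2 fold change of each tested gene of the members and of the 8 lists, for each arm against control. Genes called higher or lower are coloured, and those that did not pass are grey. A bar marks the median of each list, and a dotted line that of all tested genes. In sh-APP against control each of the 8 lists has more higher than lower called genes.

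Among genes that supply and use glutathione, 11 of 20 rose and 6 fell in sh-APP (85% called, where the background in this and the following lists is again 53.7%, 25.8% higher and 27.9% lower; median 0.32). Slc3a2, the heavy chain of the cystine transporter, rose by 0.56 ± 0.07 on the log2 scale (adjusted p = 3.99e-05), and Gpx1, the main cytosolic glutathione peroxidase, by 0.60 ± 0.07 (2.98e-05). Slc7a11, the transporting subunit beside Slc3a2, was named after its values were seen: it fell by 0.71 ± 0.17 (123 to 75.1 CPM, adjusted p = 0.00367). It was not called when control replicate 2 was omitted (-0.47) or with no filter on low counts (adjusted p = 0.0552). With the antibody its mean was 88.5 CPM and it was not called. It was called there without anti-Abeta replicate 2 (-0.71, adjusted p = 0.00158), and with DESeq2, limma-voom, the filter of 1 CPM in 3 libraries or the replicate block. Gpx8, Glrx and Glrx2 fell, by 0.58 ± 0.10, 0.65 ± 0.10 and 0.76 ± 0.10. Glrx and Glrx2 are glutaredoxins, which use glutathione to reduce protein thiols. Of 12 tested glutathione transferases 5 rose and 1 fell (median 0.28), and the 50% called is below the share of all genes. Gstm7 rose by 1.26 ± 0.13 (7.38 to 17.7 CPM, adjusted p = 1.45e-05) and Gstm1 from 275 to 391 CPM (0.51 ± 0.08, adjusted p = 0.000156), while Mgst1, a microsomal transferase, fell by 0.77 ± 0.11. The mu-class genes are close copies of each other, so their separate levels are uncertain. Gstm7 and Glrx2 also overlap other annotated genes.

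In the thioredoxin and peroxiredoxin list 7 of 17 rose and 4 fell in sh-APP (64.7% called, median 0.18). Prdx3, the mitochondrial peroxiredoxin, fell like Prdx1: by 0.95 ± 0.09 in sh-APP (407 to 210.4 CPM, adjusted p = 6.56e-06) and by 0.58 ± 0.09 with the antibody (272 CPM, adjusted p = 0.00226), and it was lower in sh-APP than in anti-Abeta (-0.37 ± 0.08, adjusted p = 0.00589). Prdx5, another peroxiredoxin, rose by 0.60 ± 0.08, and Txn2, mitochondrial thioredoxin, by 0.53 ± 0.07. Txn1, cytosolic thioredoxin, was named after its values were seen and lay the other way. Its means were 359 CPM in control, 209 in sh-APP and 264 in anti-Abeta, with every library of both arms below both control libraries. Sesn2, a stress-induced sestrin, rose by 0.88 ± 0.12. The peroxiredoxin genes thus did not move together. Prdx3, Prdx5, Txn2 and Sesn2 each overlap another annotated gene.

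Among the other NADPH suppliers 7 of 11 rose and 2 fell in sh-APP (81.8% called, median 0.38), whereas Me1 fell. Pgls, a lactonase of the pentose phosphate pathway, rose by 0.84 ± 0.11 (adjusted p = 6.21e-05), and Tkt, a transketolase, by 0.57 ± 0.07 (397 to 588 CPM, adjusted p = 5.31e-05). With the antibody Pgls rose by 0.54 ± 0.11 (adjusted p = 0.00554) and Tkt by 0.35 ± 0.07 (adjusted p = 0.00624), and neither was called once control replicate 1 was left out (adjusted p = 0.0862 and 0.0897). Pgls overlaps another annotated gene.

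The heme and iron list, to which Hmox1 is related, had 6 of 8 tested genes called in sh-APP, all higher (75% called, median 0.36). edgeR, DESeq2 and limma-voom each called 0 of them lower, and 0 were lower at an unadjusted p under 0.05. Slc48a1, a transporter that moves heme out of lysosomes, rose by 0.87 ± 0.10 (136 to 248 CPM, adjusted p = 1.71e-05). Blvrb, biliverdin reductase B, rose by 0.60 ± 0.07 (52.4 to 79.3 CPM, adjusted p = 3.82e-05). With the antibody these had log2 fold changes of 0.26 ± 0.09 (adjusted p = 0.0546, or 0.30 with adjusted p = 0.0298 without anti-Abeta replicate 2) and 0.15 ± 0.07 (adjusted p = 0.141), and both differed between the arms (0.61 ± 0.08, adjusted p = 0.000871, and 0.44 ± 0.07, adjusted p = 0.00105). Slc40a1, the iron exporter ferroportin, rose by 1.59 ± 0.49 (0.413 to 1.25 CPM, adjusted p = 0.0154), and was not called once control replicate 2 was left out (1.11, adjusted p = 0.118). Slc40a1 overlaps other annotated genes. The list says little of ferritin: Fth1 had no count, and Ftl1 had means of 1.18, 0.785 and 1.14 CPM in control, sh-APP and anti-Abeta. Whether these levels reflect expression or how reads were assigned was not tested.

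Of 15 tested genes for quinone and carbonyl detoxification, the group to which Nqo1 belongs, 8 rose and 1 fell in sh-APP (60% called, median 0.34). Aldh2, the mitochondrial aldehyde dehydrogenase, rose from 134 to 259 CPM (0.95 ± 0.08, adjusted p = 5.14e-06), and the arms differed by 0.55 ± 0.07 (adjusted p = 0.000717). Osgin1, an oxidative stress-induced growth inhibitor, rose by 0.86 ± 0.12 and Akr7a2, an aldo-keto reductase, by 0.72 ± 0.11. Of 6 superoxide and hydrogen peroxide enzymes 4 rose and 1 fell (83.3% called, median 0.42). Sod3, extracellular superoxide dismutase, rose by 0.85 ± 0.11 and Sod2, the mitochondrial form, by 0.38 ± 0.09. Catalase (Cat) fell by 0.59 ± 0.07 in sh-APP (638 to 423 CPM, adjusted p = 3.94e-05) and by 0.41 ± 0.07 with the antibody (479 CPM, adjusted p = 0.00344), and the second was not called once control replicate 1 was left out (adjusted p = 0.0584). Sod2 had a log2 fold change of -0.16 ± 0.09 with the antibody (adjusted p = 0.185) and differed between the arms by 0.54 ± 0.08 (adjusted p = 0.00105). Akr7a2 and Cat overlap other annotated genes.

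Many companions named above for sh-APP were also called with the antibody, in the same direction, in the fit of all libraries. Gpx1, Slc3a2, Gstm7, Txn2, Prdx5, Sesn2, Osgin1, Akr7a2, Aldh2 and Sod3 were called higher there, and Gpx8, Glrx, Glrx2 and Mgst1 lower. Each of these antibody calls was lost under at least 1 alternative. The companion calls of the antibody arm were mostly lost when control replicate 1 was left out. Lower precision with 1 control library was not told apart from an effect of that replicate. Without it, which leaves 1 control library that is assumed to vary like the other groups, 1 of 104 tested companions was called in anti-Abeta against control, in place of 43 of 103. Calls over all genes fell alike, from 4223 of 14445 to 439 of 15027. Prdx1, Gsta1 and Me1 kept their calls there, at adjusted p = 0.0481, 0.0495 and 0.0481.

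For each member, the tested gene outside the lists with the most similar log2 CPM over the 8 libraries was sought by Pearson's r. The groups themselves set much of this likeness, so it is a description only. The r values ran from 0.924 for Txnrd1 with Arl6ip5 to 0.997 for Prdx1 with Emc2, which had means of 136 CPM in control, 76.1 in sh-APP and 88.8 in anti-Abeta. Nqo1 was closest to LOC500712 (r = 0.991), whose means were 40.4, 194 and 45.5 CPM. Gclm was closest to Enpp4 (r = 0.992), with 45.1, 29.97 and 34.6 CPM, and Srxn1 to Anxa5 (r = 0.992), with 456, 558 and 486 CPM.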

How the data were processed

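RNA of rat astrocytes was sequenced in 8 libraries, and the authors deposited raw counts per gene symbol, whole numbers with no normalization. Per the submitters' processing notes, the build was rn6 and the tools were STAR 2.6.0a, HTSeq 0.11.1, DESeq2 1.24.0, Trimmomatic 0.36, SAMtools 1.9 and FastQC 0.11.7. No source used here gives the role of each tool or the strandedness. Of 28546 entries 8853 had no count, and 26 symbols had become dates.

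Genes were kept by filterByExpr (minimum count 10, minimum total 15), which left 14445. All 8 libraries entered 1 fit in edgeR 4.0.16 (R 4.3.3) with TMM factors and a term for group alone, which left 5 residual degrees of freedom. The robust quasi-likelihood test was used, with Benjamini-Hochberg adjustment over all tested genes and a threshold of 0.05. SE was taken as the log2 fold change over the root of F. CPM values include the TMM factors, and log2 CPM used a prior count of 2.

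The members and the lists were chosen with earlier results of these data known. Genes named are the members, Nfe2l2, Keap1 and Bach1, up to 4 called genes of each list with the smallest p in sh-APP against control and up to 2 in each of the other comparisons, and for each member its nearest gene. The text prints part of these, and 1 further gene is not reported here. Fth1, Gsta2 and Gsta5 had no counts and were not tested, and Gstm2, Gstm5, Pgd, Akr1b8 and Ugt1a6 are not analysed here. There were 18 alternatives: leaving out each of the 8 libraries, limma-voom (limma 3.58.1), DESeq2 1.42.0, a block for the replicate number, RLE factors, upper-quartile factors, library totals alone, the spread estimated without the robust option, no filter on low counts, at least 1 CPM in 3 libraries, and a fit restricted to the 2 groups of a comparison.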

Additional observations from a re-analysis of the deposited data

How the results depend on the processing

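Leaving out 1 library at a time gave 6 to 7 called members for sh-APP against control, 3 to 6 for anti-Abeta against control and 3 to 6 for sh-APP against anti-Abeta. The called companions ranged from 1 to 46 for anti-Abeta against control (43 with all libraries), with 1 without control replicate 1, 23 without control replicate 2 and 19 without anti-Abeta replicate 3. For sh-APP against anti-Abeta they ranged from 20 to 38 (36 with all), lowest without sh-APP replicate 1. All called genes ranged from 439 to 4775 for anti-Abeta against control, with 439 (54 higher and 385 lower) without control replicate 1, 2431 without control replicate 2 and 2594 without anti-Abeta replicate 3. They ranged from 2233 to 3582 for sh-APP against anti-Abeta, lowest without sh-APP replicate 1.

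Whether replicate numbers pair the libraries could not be settled. Of 7 same-numbered pairs 1 had a correlation of deviations over 0.1 (range -0.01 to 0.105). Deviations were taken from group means, so the 2 control libraries mirror each other and pairs with them say little. Between the arms, same-numbered pairs gave 0.105, 0.098 and -0.0056 for replicates 1, 2 and 3. The other pairs between the arms gave -0.108 to 0.015. With the replicate number as a block, 6, 5 and 4 members, 69, 29 and 35 companions and 7328, 3480 and 3675 of all genes were called for sh-APP and for anti-Abeta, each against control, and for the arms against each other.

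Scaling by library totals alone moved the median of all genes by 0.20 and 0.15 on the log2 scale in the comparisons of sh-APP and anti-Abeta with control, and the higher share of called genes from 48.04% to 62.6% and from 43.4% to 71.7%. Upper-quartile factors gave 53.9% for the antibody. For sh-APP against anti-Abeta the share went from 38.5% to 49.5% with totals. Gclc, Txnrd1 and Gsta1, not called in sh-APP, took log2 fold changes of 0.13, 0.20 and 0.20 with library totals. Gsr, also not called there, reached -0.02 at the highest of the alternatives. Over 171 results of single named genes and 3063 refits, 2832 stayed on the same side of the threshold, 160 lost a call, 71 gained one, and 0 reversed a called direction.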
